A study of Homo sapiens with 4 samples.

Results

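The pregnancy-specific glycoprotein (PSG) genes were examined by RNA-seq in the cell line ES-2, which was established from a human ovarian cancer, is labelled as clear cell carcinoma and carries the endogenous YAP1-MAML2 (YM) fusion. The cells had been transduced with pLKO.1 lentiviruses carrying either a nontargeting shRNA (shCtl, n = 2 biological replicates) or shM2-3, an shRNA against MAML2 (n = 2), and every library therefore came from virus-transduced cells of the same line. shM2-3 matches sequence that MAML2 and the fusion share, so loss of the 2 transcripts cannot be told apart, and this RNA-seq used 1 shRNA only. RNA was taken 96 h after the first infection by the sample labels, and the replicates were cultured independently. 10 PSG genes were named (PSG1 to PSG9 and PSG11), because the PSG5 values in this same contrast were already known to be far lower after knockdown. The family was thus selected on the result, and its values are given as a description, with no test. Of the 10, 9 had a row among the 19626 genes of the table, and PSG8 was not analysed here.

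PSG genes encode secreted glycoproteins with immunoglobulin-like domains. They form one branch of the carcinoembryonic antigen family, with the CEACAM genes as the other, and lie side by side in a primate gene cluster. The syncytiotrophoblast, the hormone-secreting outer layer of the placenta, releases PSG proteins into the maternal blood, where they are known as markers of pregnancy. Known activities of single PSG proteins include binding of integrins and heparan sulfate proteoglycans and activation of latent TGF-β, and they are not typical products of ovarian epithelium.

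The PSG genes resemble one another closely, which bears on how reads can be assigned to them. In hg38 with GENCODE release 44 all 10 lie on the minus strand of chromosome 19, within 547893 bases (chr19:42721638-43269530). From the lower coordinate the order was PSG3, PSG8, PSG1, PSG6, PSG7, PSG11, PSG2, PSG5 (chr19:43166256-43186536), PSG4 (chr19:43192702-43207299) and PSG9 (chr19:43211791-43269530). PSG5 and PSG4, the 2 members with the most counts, are direct neighbors 6165 bases apart, and PSG9 begins 4491 bases beyond PSG4. Over the 45 pairs of members, the aligned coding sequences were 86.8% to 95.7% identical (median 93.5%). For PSG4 and PSG5 the identity was 93.5%, with 64 mismatches in 978 aligned bases.

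The longest exact coding run that PSG5 shared with any other member was with PSG3. It is printed because a read of 150 bases inside it cannot be assigned to 1 of the 2 genes by its sequence. The run holds 174 bases, lies in coding exon 3 of PSG5 (chr19:43175934-43176107, minus strand, residues 158 to 215) and in coding exon 4 of PSG3 (chr19:42729842-42730015, minus strand, residues 251 to 308), and reads as follows from 5′ to 3′ in the GENCODE transcripts.
PSG5 and PSG3: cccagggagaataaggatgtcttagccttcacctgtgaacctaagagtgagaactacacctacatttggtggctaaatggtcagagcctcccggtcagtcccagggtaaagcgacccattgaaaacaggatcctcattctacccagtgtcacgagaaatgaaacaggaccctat

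The runs that PSG5 shared with PSG1 and with PSG8 were 148 bases each, and its longest run in common with PSG4 was 110 bases. PSG4 shared at most 100 coding bases in a row with any member other than PSG5, and that was with PSG6. Windows of the read length, 150 bases, were then taken at every position of each member's canonical transcript and looked up in all transcripts of the other PSG genes and of the pseudogene PSG10P. None of the 1883 windows of PSG4 and none of the 1558 of PSG9 occurred elsewhere in the family. For PSG5, 25 of 1491 windows did (1.68%), all of them in PSG3. The highest share was in PSG1, with 56 of 1913 windows (2.93%), and PSG2 and PSG11 had 37 windows in common. With windows of 100 bases the share rose to 4.50% in PSG4 and 7.27% in PSG5, and it ran from 2.05% in PSG9 to 16.2% in PSG1. No window of 300 bases, the length of both reads of a pair laid end to end, was shared by any member. When up to 2 mismatches were allowed in 150 bases, 4.35% of PSG4 windows, 8.25% of PSG5 windows and 23.7% of PSG1 windows matched another member. At this limit PSG4, which held most of the counts, had the lowest share and PSG1 the highest. With up to 5 mismatches the order differed, at 44.3% for PSG4 and 36.6% for PSG5, in a range from 34.4% (PSG11) to 57.0% (PSG8).

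**Figure D1:**
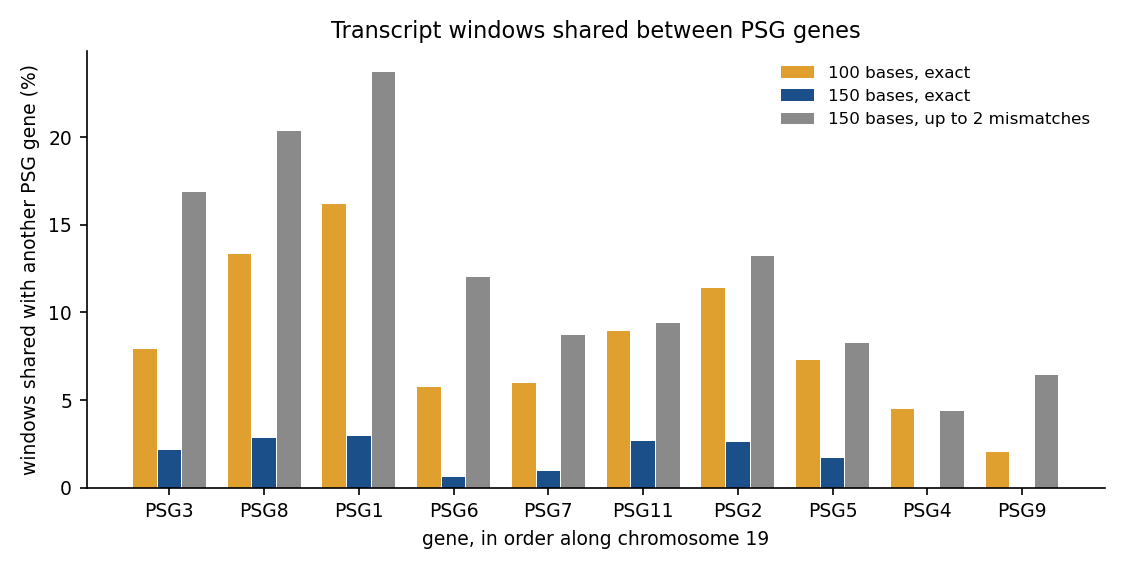
Share of sequence windows of each PSG gene's canonical transcript (y axis, %) that also occur in another PSG gene, by gene in chromosomal order (x axis). Bars stand for exact matches of 100 or 150 bases and for 150 bases with up to 2 mismatches, and PSG4 and PSG9 have no exact match at 150 bases.

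The authors removed reads that mapped ambiguously or with a mapping quality under 10, and then gave each gene an estimated count, which need not be whole. Among the 36 member values (9 genes in 4 libraries), 9 were more than 0.001 from a whole number, which is 36% of the 25 values above 0. Over all genes 57.98% of the values above 0 were not whole. Libraries were not strand-specific, so reads from an opposite-strand gene count alike. The antisense gene PSG11-AS1 covers 517 of the 4678 exon bases of PSG5, and CEACAMP10, a pseudogene on the same strand, covers 685 of the 5048 exon bases of PSG9. Neither had a row, and their share of the PSG5 and PSG9 counts was not tested.

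Estimated counts summed to between 20051083 and 20423873 in shCtl and between 21813798 and 23978660 in shM2-3. MAML2, the targeted gene (chr11:95976598-96343195, minus strand), checks the labels and had an RPKM (reads corrected for gene length and for library size) of 8.61 and 8.26 in shCtl and 3.11 and 2.998 in shM2-3. Its log2 fold change was -1.40 (standard error 0.0688, adjusted p = 5.18e-10 by edgeR's quasi-likelihood method, adjusted after Benjamini and Hochberg). A gene was tested if its RPKM passed 1 in any of the 4 libraries (12157 genes), and it was called if the adjusted p did not exceed 0.05 and the level differed at least 2-fold. Under these limits 8.93% of tested genes were called lower and 9.24% higher in shM2-3.

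PSG4 was by far the most abundant member in control cells, and it fell to 6.31% of its control level. Its estimated counts were 2305.68 and 2284.55 in the shCtl libraries and 159 and 174.047 in the shM2-3 libraries. Both shM2-3 values lay far below both shCtl values, and the spread within each pair was small beside the gap. As a length-scaled level, PSG4 stood at an RPKM of 44.8 ± 0.823 (SD, n = 2) in shCtl and 2.83 ± 0.378 in shM2-3. The log2 fold change was -3.92 (standard error 0.0861), which was the 40th lowest of the 12157 tested genes. From the pooled counts PSG4 was 15.2-fold lower (95% interval 13.6 to 17.1, from counting error only).

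PSG5, the gene that led to the choice of the family, was counted 336.999 and 378.993 times in the shCtl libraries, and the shM2-3 libraries held 1 and 8 counts. The groups were far apart, but the 2 shM2-3 libraries rest on so few reads that they differ from each other by several-fold. In RPKM it stood at 9.24 ± 0.657 (SD, n = 2) in control cells and 0.105 ± 0.118 with shM2-3, or 1.13% of control. The edgeR log2 fold change of -6.41 (standard error 0.339) was the fifth lowest of all tested genes. DESeq2 gave -6.41 with a wider standard error of 1.04. From pooled counts PSG5 was 87.8-fold lower, with a counting interval of 46.0 to 193. Without shM2-3 replicate 2, the library with 8 counts, the log2 fold change became -8.51, and without shM2-3 replicate 1 it became -5.52, whereas PSG4 moved only between -4.07 and -3.78 when each library was left out in turn.

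PSG4 and PSG5 were the only members that reached the filter of an RPKM above 1, PSG4 in all 4 libraries and PSG5 through the shCtl libraries alone. Their values lay past the limits for a lower call, which for PSG5 the choice of the family had fixed, so nothing is read from that count. The other 7 had at most 0.923 RPKM in any library, so they were read from their counts and from a second edgeR fit over all 19626 genes with a count. In that fit the values of PSG1, PSG4, PSG5, PSG6 and PSG9 lay past the limits, 5 of the 9 members, where 7.76% of all genes did. This count comes from the contrast that chose the family and is a description only.

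PSG1, the best studied member and a known activator of latent TGF-β, had 63.984 and 43.7189 counts in control cells, and 2 and 5 were left in shM2-3. The groups did not overlap, and pooled counts were 17.0-fold lower after knockdown (counting interval 7.99 to 43.4). The corresponding RPKM values were 0.772 ± 0.214 (SD, n = 2) and 0.0444 ± 0.0294. PSG1 also had the largest share of 150-base windows in common with other members, and how far its counts depend on the assignment of shared reads was not tested.

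PSG9, the member next to PSG4 and likewise a reported activator of latent TGF-β, had 19 and 31 counts in control cells, whereas the knockdown libraries held 0 and 1. This is a 55.2-fold lower pooled count, but with 1 read left the counting interval ran from 9.46 to 2223. PSG6 had 23 counts in each shCtl library and none in either shM2-3 library. Against a floor of 3 counts per library PSG6 was at least 8.44-fold lower. Both genes shared few or none of their 150-base windows with the family, 0 for PSG9 and 10 of 1554 for PSG6, all of these with PSG10P.

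The last 4 members were near the limit of detection in control cells, and none was called in the fit over all genes. PSG7 had 1.01595 and 12.2852 counts in control libraries, and 3 and 1 were found in shM2-3, so that its groups overlapped. PSG2 had 6 and 3 counts in shCtl, PSG11 had 0 and 5, and PSG3 had 0 and 3.00685, and all 3 were at 0 in both shM2-3 libraries. A change in these 4 genes was not detectable at this depth. PSG3, which shares the 174-base run with PSG5, stayed at 3.00685 counts or fewer where PSG5 had over 300. Since ambiguous reads were removed, these counts do not show how reads from that run were assigned. The pseudogene PSG10P, which lies within the cluster, had 8 and 2 counts in control libraries and 5 and 7 in shM2-3 libraries. Its groups overlapped, and at these counts a change was not detectable in either direction. The antisense RNA PSG8-AS1 was counted 7 times and 1 time in the control libraries and had none in shM2-3.

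**Figure D2:**
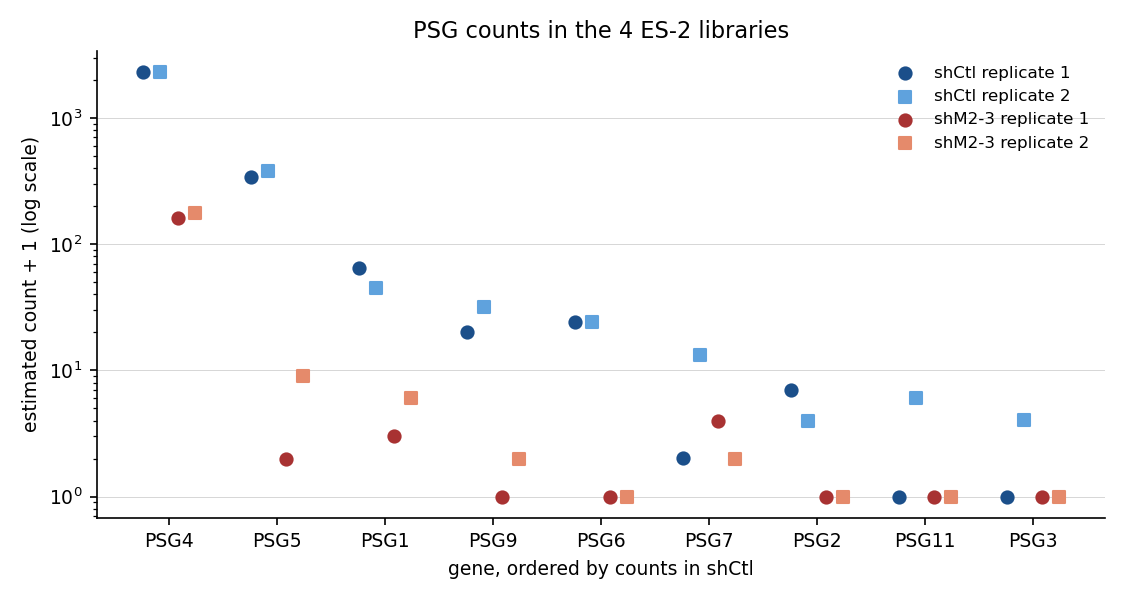
Estimated counts plus 1 on a log scale (y axis) of the 9 PSG genes with a row (x axis, ordered by counts in shCtl), 1 point per library. For PSG4, PSG5, PSG1, PSG9 and PSG6 both shM2-3 points lie below both shCtl points. The same holds for PSG2, but only on 6 and 3 counts against 0, whereas PSG7, PSG11 and PSG3 overlap. This describes the points drawn, and nothing is read from how many genes separate.

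The order of the control levels in RPKM, which is scaled by length, was PSG4, PSG5, PSG1, PSG9, PSG6, PSG7, PSG2, PSG11 and PSG3. PSG4 and PSG5 differed from each other and from all others by more than the spread between libraries, while PSG1, PSG9 and PSG6 lay within about 1 SD of one another in steps along that order, as did the last 4 among themselves. PSG6 and PSG7, at 0.538 ± 0.00638 and 0.135 ± 0.162 RPKM (SD, n = 2), were further apart than that. After knockdown PSG4 remained first at 2.56 and 3.10 RPKM, and no other member exceeded 0.188 RPKM in a shM2-3 library.

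Since reads could have been split differently between members, the counts of all 9 were also added and fitted as 1 row. That sum of counts does not depend on how reads were split among these 9, but it leaves out PSG8, PSG10P and the reads removed as ambiguous. Together they held 2755.68 and 2784.55 counts in the shCtl pair, and 165 and 189.047 counts remained in the shM2-3 pair. The control libraries were nearly equal, and both knockdown libraries lay far below them. The summed RPKM was 56.3 ± 0.0601 (SD, n = 2) in shCtl and 3.02 ± 0.519 in shM2-3, or 5.37% of control, and the log2 fold change of the summed counts was -4.11 (standard error 0.0857). Without PSG4 the shCtl sums were 450 and 500 counts, the shM2-3 sums were 6 and 15, and the log2 fold change was -5.62 (standard error 0.247). The 7 members other than PSG4 and PSG5 together held 113 and 121.011 counts in control libraries and only 5 and 7 in shM2-3, which in RPKM left 3.95% of control. PSG4, PSG5 and the pooled remainder each kept under 7% of their control RPKM, so the low total did not come from PSG5 alone. Whether the small remainder holds reads that stem from PSG4 or PSG5 was not tested.

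The make-up of the family signal differed as well. PSG4 contributed 80.6% and 78.5% of the summed RPKM in shCtl and 96.4% and 91.3% in shM2-3. The share of PSG5 was 15.6% and 17.2% in shCtl and 0.802% and 5.55% in shM2-3. The shM2-3 shares of PSG5 rest on 1 and 8 counts and were less than the shCtl shares in both libraries.

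**Figure D3:**
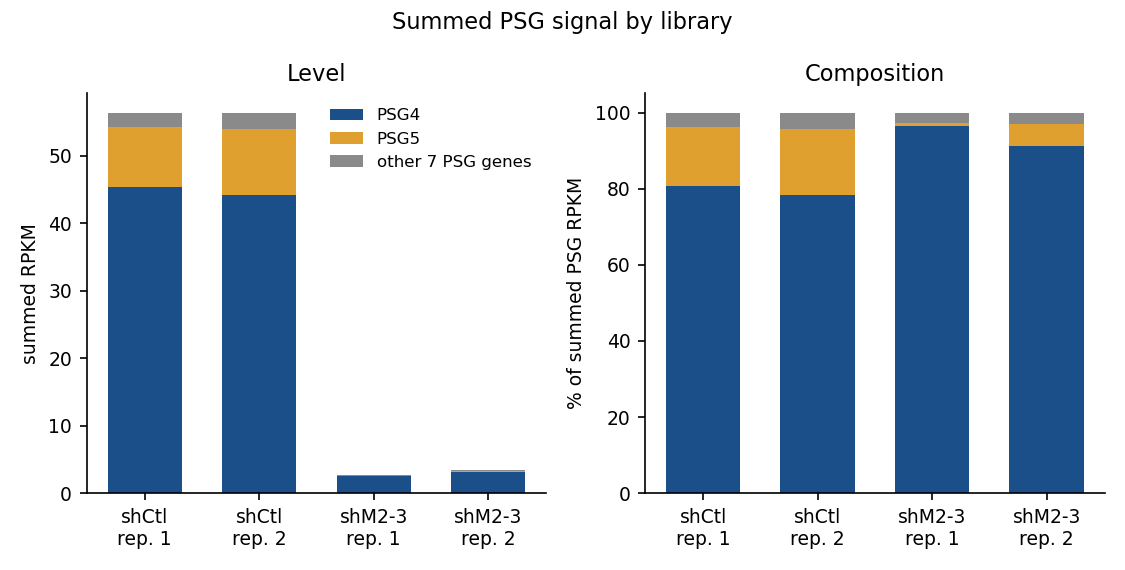
Summed RPKM of the 9 PSG genes (left) and its composition in % (right) in each of the 4 libraries, stacked as PSG4, PSG5 and the other 7 genes. The total drops from about 56.3 to 3.02 RPKM on average, and PSG4 makes up 91.3% and 96.4% of what is left.

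To see whether lower values extended past the cluster, the 10 nearest genes with a row on each side were read, CEACAM genes and pseudogenes left out. These 20 genes reached 466510 bases before the cluster and 326862 bases after it, and 11 of them were tested. Of the 11, 1 was called lower and 0 higher, beside 8.93% and 9.24% of all tested genes, and their median log2 fold change was 0.18 (-0.0037 over all tested genes). At an unadjusted p under 0.05 edgeR put 4 of the 11 lower and 4 higher (9057 of all 12157 tested genes passed), and DESeq2 called 1 lower and 0 higher.

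The gene called lower was CD177, a surface glycoprotein of neutrophils and the nearest gene past PSG9, 84156 bases away. Its counts were 67 and 51 in the control libraries, then 19 and 14 with shM2-3 (log2 fold change -1.98, standard error 0.404, adjusted p = 0.000611, edgeR). Its 2 shM2-3 values were both below its shCtl values, but its decrease was smaller than that of PSG4 or PSG5. On the other side the nearest gene, LIPE-AS1, a noncoding RNA 69271 bases from PSG3, had 54 and 34 counts in control libraries, 7 and 12 with shM2-3, and was under the filter. PHLDB3, a gene further past CD177, lay just short of the fold limit (log2 fold change -0.997, standard error 0.146, adjusted p = 3.28e-05), and it was called lower with total counts. PHLDB3 was named after its values were seen.

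**Figure D4:**
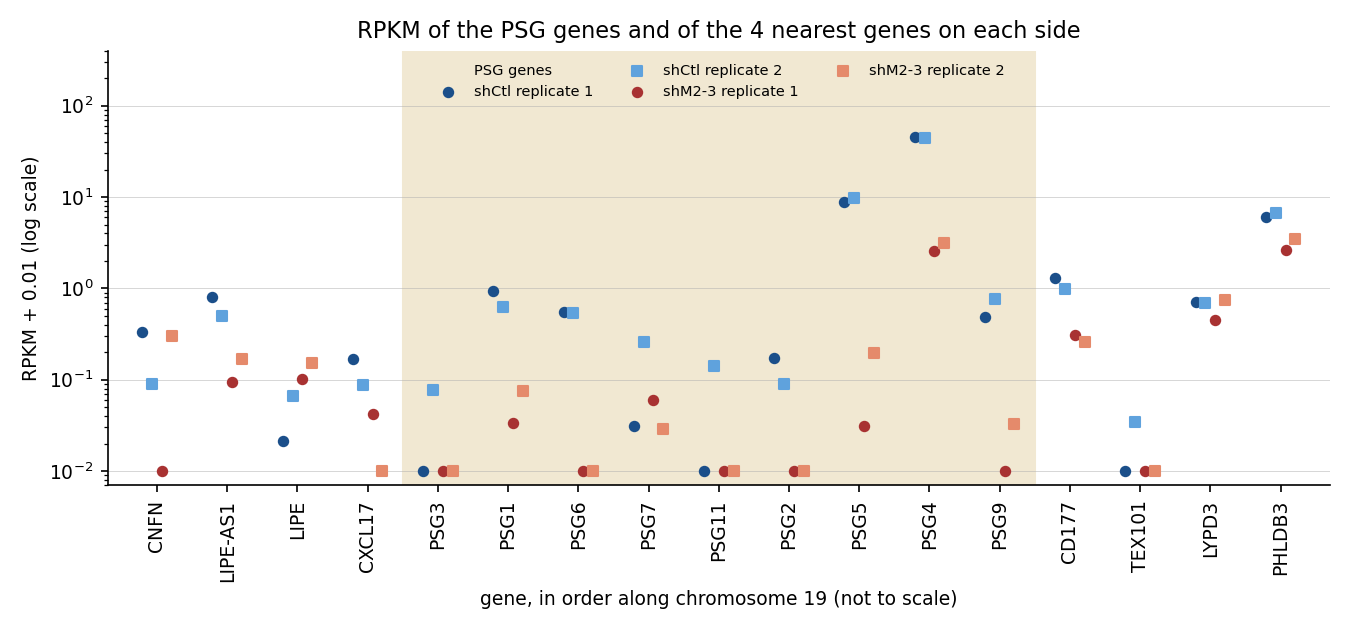
RPKM plus 0.01 on a log scale (y axis) for the 9 PSG genes with a row (shaded) and the 4 nearest genes on each side. CEACAM genes, of which CEACAM1 and CEACAM8 lie nearer than some genes drawn, were left out. Genes are in order along chromosome 19 and not to scale (x axis), with 1 point per library. Both blue shCtl points lie above both red shM2-3 points at PSG1, PSG6, PSG2, PSG5, PSG4 and PSG9. Among the flanking genes they do so at LIPE-AS1, CXCL17 (4 and 2 counts against 1 and 0), CD177 and PHLDB3, whereas at LIPE the red points are higher. Nothing is read from how many genes separate.

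Promoter sequence was available for 3 of the 10 members, as RefSeq windows of GRCh38.p14, and the 250 bases before the RefSeq start are shown because PSG4 and PSG5, whose RNA fell together, can be set beside PSG3, which was hardly expressed. Exact matches of a form of the Sp/KLF box (GGGCGG or its reverse complement CCGCCC) are in capitals, and each sequence runs 5′ to 3′ along the minus strand. The PSG4 window lies inside the PSG4 gene span given above because the GENCODE span also holds a transcript that starts further upstream.
PSG3 (chr19:42740482-42740731): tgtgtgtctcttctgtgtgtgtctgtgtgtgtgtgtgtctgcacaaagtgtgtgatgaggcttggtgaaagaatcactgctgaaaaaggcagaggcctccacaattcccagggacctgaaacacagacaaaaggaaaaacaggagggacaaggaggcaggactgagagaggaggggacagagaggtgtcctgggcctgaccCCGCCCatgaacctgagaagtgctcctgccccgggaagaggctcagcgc
PSG4 (chr19:43205639-43205888): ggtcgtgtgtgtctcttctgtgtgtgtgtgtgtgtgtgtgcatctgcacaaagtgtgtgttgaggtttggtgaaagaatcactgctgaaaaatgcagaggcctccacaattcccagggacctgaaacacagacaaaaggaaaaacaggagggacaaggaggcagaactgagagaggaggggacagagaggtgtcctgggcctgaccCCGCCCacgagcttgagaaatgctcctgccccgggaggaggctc
PSG5 (chr19:43186537-43186786): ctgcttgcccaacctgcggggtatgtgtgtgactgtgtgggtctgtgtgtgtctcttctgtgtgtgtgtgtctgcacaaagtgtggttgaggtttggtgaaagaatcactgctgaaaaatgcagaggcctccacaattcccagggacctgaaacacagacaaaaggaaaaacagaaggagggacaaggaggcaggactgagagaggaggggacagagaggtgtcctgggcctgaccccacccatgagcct

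The windows of PSG4 and PSG5 were identical at 209 of 217 aligned bases (96.3%), those of PSG3 and PSG4 at 95.1%, and those of PSG3 and PSG5 at 96.3%. PSG3, at the edge of detection, thus had a promoter window as close to PSG5's as PSG4's was. PSG3 and PSG4 each held 1 exact match of GGGCGG or CCGCCC, with its first base 49 and 44 bases before the start, and PSG5 held none. At the aligned place PSG5 reads CCACCC, which is the substitution G3A counted from the first base of CCGCCC. Other sequences that Sp and KLF proteins may bind were not searched, so PSG5 is not shown to lack such a site. GGGCGG or CCGCCC occurs in 42.6% of the 35116 windows of the same length. None of the 3 windows held the TEAD motif (GGAATG or CATTCC, either strand), present in 11.9% of all windows, or the AP-1 motif TGANTCA, present in 6.57%. Such matches describe these letters in these windows only, and binding was not measured.

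ES-2 cells were checked for the cell type that makes PSG proteins. Of 35 placental hormones and syncytial proteins, 19 had a row and 10 passed the RPKM filter, so that a part of the list was expressed. Several markers with a narrow placental expression were at or near 0. The fusogen genes ERVW-1 and ERVFRD-1 had at most 0.0290 and 0.0658 RPKM, the steroid enzymes HSD3B1 and CYP19A1 at most 0.0208 and 0.0187, and the transcription factor GCM1 at most 0.0126. The chorionic gonadotropin subunit gene CGB8 had 0.770 and 0.237 RPKM in shCtl and 0 and 0.130 in shM2-3. CGA, CSH1, GH2 and ELF5 were not analysed here. SDC1 and HOPX, which many tissues express, stood at 37.3 and 20.6 RPKM on average in shCtl, beside 44.8 RPKM for PSG4. Other members were expressed at lower levels, with KISS1 at 4.48 and 5.12 RPKM in the shCtl libraries. PAPPA had 1.17 and PLAC1 1.059 RPKM on average in shCtl. GCM1 belongs to the 17 trophoblast transcription factors listed below. Of the 11 with a row, 6 passed the filter, with shCtl means from 2.501 (TFAP2C) to 8.48 RPKM (TBX3). The genes near 0 were thus only a part of each list, and likeness to the syncytiotrophoblast was not tested.

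The list was called lower for 5 of its 10 tested genes and higher for 1, where 8.93% and 9.24% of all tested genes were, with a median log2 fold change of -0.50 (-0.0037 over all tested genes). By sign alone the 10 split into 5 lower and 5 higher. At an unadjusted p under 0.05 edgeR put 5 lower and 3 higher, beside 37.2% and 37.3% of all tested genes. INHBA and PGF rose short of the fold limit (log2 fold changes 0.87 and 0.84) and were called higher at a limit of 1.5. Both were named after their values were seen. The summed RPKM of the list's members went from 106 and 110 in shCtl to 91.1 and 95.2 in shM2-3. HOPX, a homeodomain protein without DNA binding, had an RPKM of 19.9 and 21.3 in shCtl and 2.45 and 2.81 in shM2-3 (log2 fold change -2.90, adjusted p = 2.48e-11, edgeR). KISS1, the precursor of kisspeptin, was at 4.48 and 5.12 RPKM in shCtl and at 0.733 and 0.486 in shM2-3 (log2 fold change -2.89, adjusted p = 1.56e-05, edgeR). ADAM12, a metalloprotease that circulates in pregnancy, had a log2 fold change of -1.60 and a mean RPKM of 10.8 in shCtl and 3.42 in shM2-3. PLAC1, a trophoblast membrane protein, was lower by a log2 fold change of -2.20 (adjusted p = 0.00618, edgeR) from 35 and 36 counts to 15 and 2. FSTL3, which binds activin, was just past the fold limit at -1.02, and its call was lost without shCtl replicate 1 or without shM2-3 replicate 2, which left 4 genes called lower. PAPPA, the metalloprotease that cleaves IGF-binding proteins and like PSG proteins a maternal serum marker, rose from 1.17 ± 0.0990 RPKM (SD, n = 2) to 5.01 ± 0.0215 (log2 fold change 2.16, adjusted p = 2.77e-11, edgeR). SDC1, a syndecan and the most abundant of the list, had 36.3 and 38.2 RPKM in shCtl and 35.3 and 36.7 in shM2-3. None of these had a log2 fold change as low as that of PSG4 or PSG5.

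Of 17 transcription factors of trophoblast, 11 had a row and 6 were tested, with 0 called lower and 2 higher (8.93% and 9.24% over all tested genes, median log2 fold change 0.17). DESeq2 also called 0 lower and 2 higher. At an unadjusted p under 0.05 edgeR put 2 lower and 3 higher, beside 37.2% and 37.3% of all tested genes. The 2 lower ones were GATA2 and TP63, whose log2 fold changes of -0.71 and -0.73 stayed short of the fold limit (both named after their values were seen). TFAP2A, the most abundant in shM2-3, rose from a mean RPKM of 8.28 to 24.4 (log2 fold change 1.63, adjusted p = 1.68e-11, edgeR), and TBX3 rose from 8.48 to 20.8 (log2 fold change 1.36, adjusted p = 4.74e-11, edgeR). The 8 factors reported to act on PSG promoters were all tested, and 0 were called lower and 1 higher, beside 8.93% and 9.24% of all tested genes (0 lower and 1 higher in DESeq2). At an unadjusted p under 0.05 in edgeR 0 were lower and 7 higher, where 37.2% of all tested genes were lower and 37.3% higher. Their median log2 fold change was 0.44. That one was RXRA, the retinoid X receptor (log2 fold change 1.18, adjusted p = 2.26e-07, edgeR). KLF6, first described as a factor that binds a PSG promoter and the most abundant of these 8, had 49.6 RPKM in each shCtl library, then 44.8 and 44.6 with shM2-3 (log2 fold change -0.09).

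The other side of PSG action is the set of proteins that PSGs are reported to bind or activate. Of 14 such partners 13 were tested, 1 was called lower and 4 higher (8.93% and 9.24% over all tested genes), with a median log2 fold change of 0.73. SDC3 lay at the fold limit, and 3 were called higher with total counts, no filter, filterByExpr or limma and without shCtl replicate 1 or shM2-3 replicate 1. TGFB2, a TGF-β ligand, fell from 19.6 ± 0.0750 RPKM (SD, n = 2) to 2.47 ± 0.0366 (log2 fold change -2.92, adjusted p = 8.27e-14, edgeR). TGFB1, the ligand that PSG proteins are known to activate, rose from 59.7 to 125 RPKM on average (log2 fold change 1.13, adjusted p = 6.99e-11, edgeR). ITGA5, the α5 integrin chain to which PSG1 binds, rose from 30.9 and 33.5 RPKM to 190 and 193 (log2 fold change 2.64, adjusted p = 1.56e-14, edgeR). ITGAV, the αv chain, rose by a log2 fold change of 1.97 and SDC3, a syndecan, by 1.01. LGALS1, or galectin-1, was the most abundant partner, at 678 ± 16.01 RPKM (SD, n = 2) in shCtl and 624 ± 17.2 in shM2-3 (log2 fold change -0.05).

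In the CEACAM branch, 4 of 12 genes had a row and only CEACAM19 was tested. It was called higher, against 0 called lower (edgeR and DESeq2, 0 lower also at an unadjusted p under 0.05), with 40 and 41.0 counts in control libraries, and 118 and 135 with shM2-3 (log2 fold change 1.505, adjusted p = 0.000169, edgeR). CEACAM1, CEACAM5 and CEACAM8 had at most 0.448 RPKM. CEACAM1, under the filter, had 10 and 6 counts in control libraries and 46 and 39 with shM2-3. It was called higher with no filter and with filterByExpr, and was named after its values were seen. In control cells no CEACAM gene with a row was expressed at a level near that of PSG4.

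Of the ovarian carcinoma markers, PAX8, WT1, NAPSA, EPCAM and CDH1 were at 0.389 RPKM or less in every library, NAPSA being a marker of the clear cell type named in the labels. KRT7 (mean RPKM 268 in shCtl) and VIM (2921, the highest of the list) were abundant, and 2 of the 4 tested markers, KRT7 and KRT8, were called lower (8.93% over all tested genes). The summed RPKM of the list went from between 3510 and 3606 in shCtl to between 2350 and 2404 in shM2-3. Of 6 leukocyte markers 5 had a row, and PTPRC had at most 0.0173 RPKM. CD14, a monocyte marker under the filter, had 3 and 4 counts in control libraries and 42 and 37 with shM2-3 (RPKM 0.0898 ± 0.0171 and 0.878 ± 0.0170, SD, n = 2), and in the fit without a filter it was called higher. CD14 was named after its values were seen. Only LYZ, the most abundant, was tested among them, with 33 and 15 counts in control libraries, and 100 and 5 with shM2-3. It was called neither lower nor higher by edgeR or DESeq2, also at an unadjusted p under 0.05 in edgeR (0 genes), but it was called lower without shM2-3 replicate 1 and higher without shM2-3 replicate 2. The part that cell types could have in the PSG values was not tested. In bulk RNA, fewer cells of a type and less RNA per cell cannot be told apart.

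**Figure D5:**
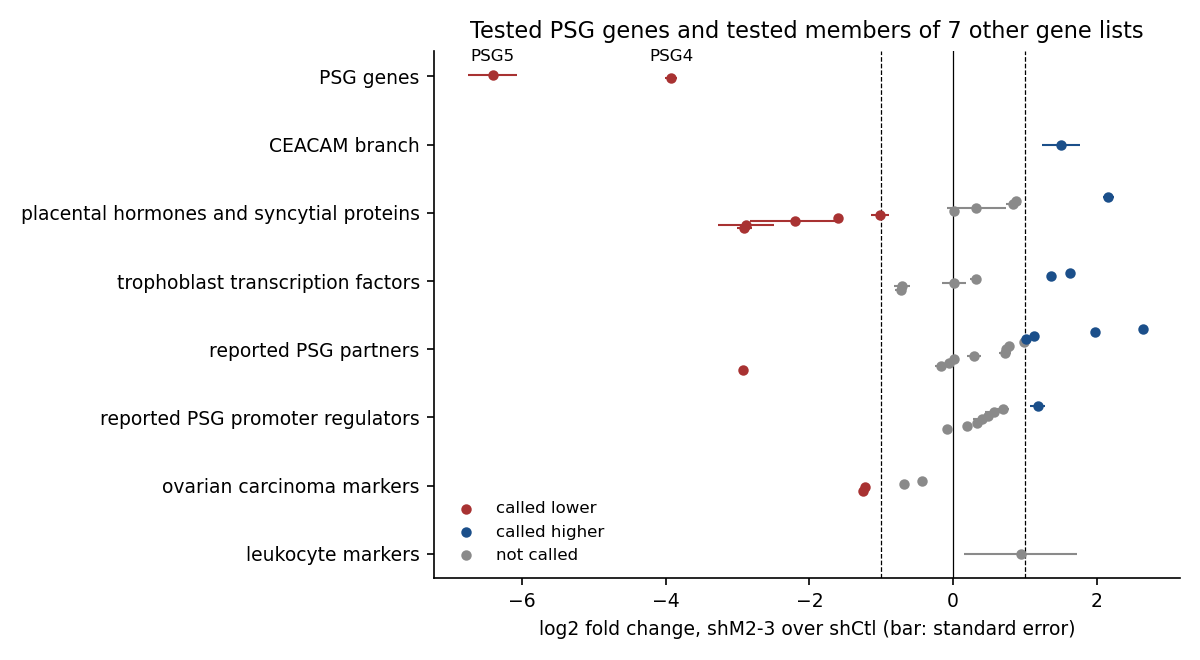
Log2 fold change of shM2-3 over shCtl (x axis, bars are standard errors) for PSG4, PSG5 and the tested members of 7 other gene lists (y axis), colored by call, with dashed lines at the fold limit of 2. PSG5 at -6.41 and PSG4 at -3.92 lie left of every other gene drawn, and the list medians lie between -0.95 and 1.505.

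For likeness to the 2 main members, 11437 genes with a mean shCtl RPKM of 1 or more were ranked by Euclidean distance over the 4 libraries, in log2(RPKM + 0.1) relative to the shCtl mean, PSG genes left out. The 5 nearest to PSG4 were MAP3K7CL (distance 0.1404), LINP1 (0.147), AMOTL2 (0.173), DAW1 (0.238) and SORCS3 (0.269). MAP3K7CL had an RPKM of 8.34 and 8.55 in shCtl and 0.392 and 0.458 in shM2-3, and AMOTL2, an angiomotin family scaffold protein, had 85.0 in each shCtl library, then 5.57 and 5.86 with shM2-3. The 5 nearest to PSG5 were DKK1 (distance 1.00), CPA4 (1.13), DCDC2 (1.24), CCBE1 (1.26) and CCN1 (1.39). DKK1, a secreted Wnt inhibitor, had an RPKM of 250 and 254 in shCtl and 6.14 and 5.98 in shM2-3. The distances around PSG5 were larger than those around PSG4, and its 2 shM2-3 libraries, at 0.0213 and 0.188 RPKM, were less alike than those of PSG4. All 10 of these genes were called lower, which the ranking itself favors, and the likeness rests on 4 libraries only.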

How the data were processed

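RNA-seq of 4 ES-2 libraries (shCtl and shM2-3, n = 2 each) was analysed. The labels give 96 h from the first infection and the paper a shorter time. The authors aligned paired reads of 150 bases from a non-strand-specific kit to hg38 with HISAT2 2.0.4, removed ambiguous and low-quality alignments and quantified RefSeq transcripts in Partek 7.18 (versions per the submitters' processing notes). The deposited values are estimated counts per gene, not normalized, and RPKM values, which the authors scaled by transcript length and mapped reads.

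Counts were rounded and compared with edgeR 4.0.16 in R 4.3.3 (TMM, estimateDisp, glmQLFit, glmQLFTest, no block) over the 12157 genes whose RPKM passed 1 in any library. On simulated counts for these genes, 200 of 200 changed genes were recovered and 0 unchanged genes were called. The planted changes were larger than the fold limit and were put only in genes with ample counts. The simulation therefore does not cover genes with few counts, such as most PSG genes, or changes near the limit. The biological coefficient of variation was 0.0485. P-values rest on 2 cultures per group, and intervals cover counting error only. Alternatives used DESeq2 1.42.0, limma 3.58.1, other filters, scaling, rounding and fold limits, leave-one-out fits and a block for replicate number. The members and the gene lists (CEACAM genes, placental proteins, trophoblast factors, PSG partners, PSG promoter regulators, ovarian and leukocyte markers) were chosen with earlier results of these data known. Genes named were all PSG rows, MAML2, called list members, the most abundant of each list, called or nearest neighbors, and the 5 genes most like PSG4 and PSG5. Near-match windows of up to 2 mismatches were added after values were seen. Coding sequences were aligned with Biopython 1.88.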

Additional observations from a re-analysis of the deposited data

How the results depend on the processing

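With 2 libraries per group each SD rests on a pair of values, and members under about 10 counts are limited by depth. For PSG4, PSG5, the family sum, MAML2 and called genes of the lists and neighbors, no direction changed under any alternative run. The other 7 PSG genes were under the RPKM filter and could enter only the fits with no filter or with filterByExpr. Their directions were therefore not examined in the other runs, which include the leave-one-out fits. Genes that were not called did turn, TFAP2C and SDC1 near 0 and LYZ without shM2-3 replicate 1. Under limma on log2(RPKM + 1) the family sum was -3.84, 596 genes were called higher and 0 neighboring genes were called, and the order of the largest falls turned, with PSG5 at -3.21 and PSG4 at -3.58. RXRA and CEACAM19 lost their calls there, and of the 5 placental genes called lower 3 were still called (ADAM12, HOPX and KISS1). The family sum without PSG4 was -5.62. PSG members called lower numbered 5 with no filter and 5 with filterByExpr, against 2. Neighboring genes called, 1 in the analysis as reported, numbered 2 with total counts, 2 under limma on log2(RPKM + 0.1), 2 with the replicate block, 3 with no filter, 3 with filterByExpr and 5 at a fold limit of 1.5, where 2302 genes were called lower and 2296 higher.

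No shift common to same-numbered libraries was seen, since their deviations correlated at -0.0166 over the tested genes. This correlation cannot show whether same-numbered cultures were handled together. With the replicate block the log2 fold changes were -4.11 for the family sum, -3.92 for PSG4 and -6.41 for PSG5. Leaving out each library in turn gave a family sum of -4.29 to -3.93, PSG4 of -4.07 to -3.78, PSG5 of -8.51 to -5.52, MAML2 of -1.43 to -1.37, and 1 to 2 neighboring genes called (2 without shCtl replicate 1 and 2 without shM2-3 replicate 2). The cause of these shifts was not tested.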
